A study of Mus musculus with 2 samples.

Results

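The endoplasmic reticulum (ER) lumen chaperones are 10 genes, Hspa5, Hsp90b1, Calr, Canx, Pdia3, Pdia4, Pdia6, Sdf2l1, Dnajb11 and Manf, listed by name for the function of their products. They were 10 of the 31053 genes counted in both libraries. RNA was measured by droplet single-cell sequencing in blood stem and progenitor cells of tumour-bearing C57BL/6 mice. At 6 to 8 weeks of age, 750000 cells of the mouse hepatoma line Hepa1-6 had been placed in the left liver lobe (an orthotopic tumour). Cells with little or no lineage marker, Sca1 and high c-Kit on their surface (LSK cells) were sorted from both bone marrow and spleen, and each tissue gave 1 library. All animals carried the tumour, no tumour-free mice were analysed here, and the labels do not give the number of mice behind a library. Tissue, sort and library differ together, so their contributions cannot be told apart, and with 1 library per tissue no test was run. All intervals below are at 95% and cover counting error alone.

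Proteins that are secreted or placed in membranes fold in the ER. BiP, the product of Hspa5, holds unfolded chains with the help of cochaperones such as Dnajb11 and Sdf2l1. GRP94, the product of Hsp90b1, takes over selected clients such as Toll-like receptors and integrins. Calreticulin and calnexin hold glycoproteins by their sugars together with the disulfide isomerase Pdia3, and other isomerases such as Pdia4 and Pdia6 form and shuffle disulfide bonds. When unfolded chains build up, the unfolded protein response raises transcription of many of these genes, in part through the ER stress response element (ERSE), a promoter motif bound by ATF6 and NF-Y.

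The promoters are shown first because they set apart members with an exact match to this element in the window searched from those without one. The RefSeq table of promoter windows, from 250 bases before to 50 bases after each start site on GRCm38.p6, held 9 of the 10 members, all but Manf. The ERSE was searched on both strands as CCAAT, 9 free bases and CCACG. It was found in 5 of 9 members, Hspa5, Hsp90b1, Calr, Canx and Pdia6, and in 37 of 27025 genes of the table (0.137%). The related ERSE-II (ATTGG, 1 free base, CCACG) was found in Dnajb11 and in 12 of 27025 genes (0.0444%). The UPRE, TGACGTGG, was found in 0 of 9 members and in 193 genes (0.714%). No 2 of the 7 sites overlapped. Capitals mark the fixed bases of each site, written 5′ to 3′ on the gene's strand:
Hspa5 ERSE: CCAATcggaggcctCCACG
Hsp90b1 ERSE, distal: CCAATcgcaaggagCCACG
Hsp90b1 ERSE, proximal, opposite orientation: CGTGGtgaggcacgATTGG
Calr ERSE, opposite orientation: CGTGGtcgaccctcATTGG
Canx ERSE: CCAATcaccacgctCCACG
Pdia6 ERSE: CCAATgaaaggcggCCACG
Dnajb11 ERSE-II: ATTGGcCCACG

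Counted from the RefSeq start site, the Hspa5 site lay at -65 to -47, those of Hsp90b1 at -212 to -194 and -107 to -89, that of Calr at -162 to -144, that of Canx at -145 to -127, that of Pdia6 at -98 to -80 and that of Dnajb11 at 7 to 17. On the genome these sites are chr2:34772025-34772043 (Hspa5), chr10:86705638-86705656 and chr10:86705533-86705551 (Hsp90b1), chr8:84847075-84847093 (Calr), chr11:50325800-50325818 (Canx), chr12:17266491-17266509 (Pdia6) and chr16:22857852-22857862 (Dnajb11). The windows of Pdia3, Pdia4 and Sdf2l1 held none of the 3 motifs. A match describes these letters only, and no binding was measured. The whole windows of Hspa5 (chr2:34771840-34772139, plus strand), the best known carrier of the element, and of Sdf2l1 (chr16:17132334-17132633, minus strand), the member that differed most between the libraries, read as follows, with the ERSE in capitals:
Hspa5: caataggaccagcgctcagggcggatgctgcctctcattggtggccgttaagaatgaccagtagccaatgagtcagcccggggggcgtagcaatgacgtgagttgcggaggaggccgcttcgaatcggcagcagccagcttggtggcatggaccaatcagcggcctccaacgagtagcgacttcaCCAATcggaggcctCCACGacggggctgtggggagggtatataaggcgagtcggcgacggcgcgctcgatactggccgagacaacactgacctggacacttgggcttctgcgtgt
Sdf2l1: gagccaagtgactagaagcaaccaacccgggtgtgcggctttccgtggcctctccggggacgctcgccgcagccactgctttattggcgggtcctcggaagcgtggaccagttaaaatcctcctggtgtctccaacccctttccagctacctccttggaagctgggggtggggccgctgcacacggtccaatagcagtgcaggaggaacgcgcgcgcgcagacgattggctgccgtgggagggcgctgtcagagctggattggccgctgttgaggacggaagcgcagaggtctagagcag

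Depth is counted in unique molecular identifiers (UMIs, 1 per captured transcript). Bone marrow gave 73740963 UMIs in 10088 cells (median 5991 per cell, 770 to 32029), and spleen 85937174 UMIs in 6546 cells (median 9978, 644 to 89330). Cell barcodes shared by the libraries numbered 16. Kit stood at 273 CPM (UMIs scaled to a common total in each library, cluster or class) in bone marrow and 225 in spleen. Ly6a, for Sca1, the other marker the cells were sorted to carry, stood at 70.5 and 80.6 CPM. Cd34 (359 and 102 CPM), Flt3 (281 and 87.8) and Slamf1 (9.97 and 5.21) are not named in the sort. With them the sum was 994 CPM in bone marrow and 501 CPM in spleen. The authors' atlas labels named a dendritic, T, B, natural killer, mast cell or basophil type for 112 bone marrow cells (1.11%) and 3413 spleen cells (52.1%), so the main spleen values are also given without such cells. Antigen-presenting cell markers summed to 871 and 10287 CPM, and plasma cell markers, of a cell type rich in ER chaperones, to 41.7 and 38.8 CPM (18.2 to 106 over the clusters) with 0 of 7 genes at 0 in either library. Immediate early and heat shock genes, which respond to handling, summed to 1530 CPM in bone marrow and 794 in spleen. Jun (847 and 353 CPM) and Egr1 (348 and 92.3) were lower in spleen, while Fos was 335 and 348 CPM. The heat shock genes Hspa1a (0.122 and 0.198 CPM) and Hspa1b (0.136 and 0.361) were barely counted in either library. The part of these genes in the results was not tested.

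The series title names the ER stress sensor PERK, and the first question here was how much of the ER folding machinery each tissue's cells transcribed. Summed over all members, the libraries were nearly level, but the members differed among themselves. The 10 genes gave 1793 CPM (1784 to 1803) in bone marrow and 1786 CPM (1777 to 1795) in spleen, a ratio of spleen over bone marrow of 0.996 (0.988 to 1.00). Per cell, thinned to 3700 UMIs, the median was 6 member UMIs in bone marrow and 5 in spleen. Of the 10 members, 1 was at least 1.5-fold higher in spleen, against 10.8% of the 8644 genes that averaged 10 CPM or more, and 0 were at least 1.5-fold lower, against 18.3%. The median log2 ratio (with 1 CPM added to each value) was 0.10 for the members and -0.11 for all genes. Under TMM scaling, which moved the median of all genes to 0.10, the members' median was 0.31. TMM also moved the split of all genes past 1.5-fold from 937 higher and 1578 lower to 1608 and 944.

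BiP transcripts were present in most cells of both libraries at a like level. Hspa5 (ENSMUSG00000026864, mm10 chr2:34771970-34777547, plus strand) stood at 327 CPM (323 to 331) in bone marrow and 336 CPM (332 to 340) in spleen, a ratio of 1.03 (1.01 to 1.04). Without the cells labelled as another type the ratio was 1.06 (1.04 to 1.08). A UMI was found in 76.4% of bone marrow and 82.1% of spleen cells, and in 62.2% and 61.8% after thinning, so the thinned shares differed less than the raw ones. No cell type here lacks these genes, so a level of free RNA could not be read from one.

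Sdf2l1, Dnajb11 and Manf, whose products act with BiP, were each higher in spleen over all cells, Sdf2l1 far more than the other 2. Sdf2l1 (ENSMUSG00000022769, chr16:17130138-17132383, minus strand), which acts with BiP and its J-domain partners to keep clients soluble, stood at 13.6 CPM (12.8 to 14.5) in bone marrow and 38.5 CPM (37.2 to 39.9) in spleen, a ratio of 2.83 (2.63 to 3.04). After thinning, 3.22% of bone marrow cells (2.86 to 3.60%) and 10.4% of spleen cells (9.65 to 11.2%) had a UMI, against 7.34% and 27.6% unthinned. Without the cells labelled as another type the Sdf2l1 ratio was 2.82 (2.61 to 3.05). Across the alternatives its log2 ratio ran from 0.86, with the clusters weighted alike, to 1.68, thinned, beside 1.43 as reported. It was the only member past 1.5-fold here, while TMM and median-of-ratios scaling added Dnajb11.

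Dnajb11 (ENSMUSG00000004460, chr16:22857845-22879634, plus strand), a J-domain protein that hands clients to BiP, stood at 41.0 CPM in bone marrow and 56.5 CPM in spleen (ratio 1.38, 1.32 to 1.44). Manf (ENSMUSG00000032575, chr9:106838312-106891979, minus strand), a small secretable factor that steadies BiP on its clients, stood at 98.4 and 111 CPM (1.13, 1.09 to 1.16). Without the cells labelled as another type the ratios were 1.45 (1.38 to 1.53) for Dnajb11 and 1.25 (1.21 to 1.29) for Manf. The span of Manf overlaps Rbm15b on the same strand and Dcaf1 on the other, so its counts are less certain than those of the other members.

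GRP94 was somewhat higher in spleen. Hsp90b1 (ENSMUSG00000020048, chr10:86690209-86705509, minus strand) stood at 180 CPM (177 to 183) in bone marrow and 217 CPM (214 to 220) in spleen, a ratio of 1.21 (1.18 to 1.23). The ratio was 1.17 (1.14 to 1.20) without the cells labelled as another type.

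The lectin chaperones and their isomerase parted. Calr (ENSMUSG00000003814, chr8:84841850-84846934, minus strand), which encodes calreticulin, the soluble lectin, stood at 577 CPM (571 to 582) in bone marrow and 448 CPM (443 to 452) in spleen, a ratio of 0.777 (0.766 to 0.788). Without the cells of another type the ratio was 0.904 (0.891 to 0.918). Canx (ENSMUSG00000020368, chr11:50293961-50325673, minus strand), which encodes its membrane-bound relative calnexin, stood at 251 and 245 CPM (0.976, 0.956 to 0.995), and at 251 and 302 CPM without those cells (1.20, 1.17 to 1.22). The order of the libraries for calnexin thus depended on which cells were counted. It depended on scaling too, since the log2 ratio was also above 0 under TMM and median-of-ratios factors. Within the clusters compared below without those cells, the calnexin ratio ran from 0.777 (HSC-2) to 1.04 (HSC-3), so no cluster reached the pooled 1.20. Pdia3 (ENSMUSG00000027248, chr2:121413775-121438687, plus strand) stood at 158 and 197 CPM (1.25, 1.22 to 1.28), and the ratio was 1.10 (1.07 to 1.13) without those cells. Its span overlaps Catsper2 on the other strand, which had 197 and 234 UMIs in all.

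Of the remaining oxidoreductases, Pdia4 was somewhat lower in spleen and Pdia6 was close to level. Pdia4 (ENSMUSG00000025823, chr6:47796141-47813430, minus strand) stood at 32.8 CPM in bone marrow and 27.6 CPM in spleen (0.842, 0.795 to 0.892). Its ratio was 0.876 (0.821 to 0.934) without the cells of another type. Pdia6 (ENSMUSG00000020571, chr12:17266545-17284770, plus strand), which also binds the sensor IRE1, stood at 116 and 109 CPM (0.945, 0.918 to 0.973). Without the cells of another type the Pdia6 ratio was 1.09 (1.06 to 1.13), above 1, as it was under TMM and median-of-ratios scaling. Over the pool without those cells, 1 member was at least 1.5-fold higher, against 14.1% of genes, and 0 lower, against 23.3%. The members' median log2 ratio was then 0.19 and that of all genes -0.13. The cells left in this pool differed in their mix of the clusters described below. MEP, the erythroid cluster, kept 881 spleen and 357 bone marrow cells, and HSC-1 kept 1089 and 5047. The part of this mix in the pooled ratios was not tested.

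**Figure D1:**
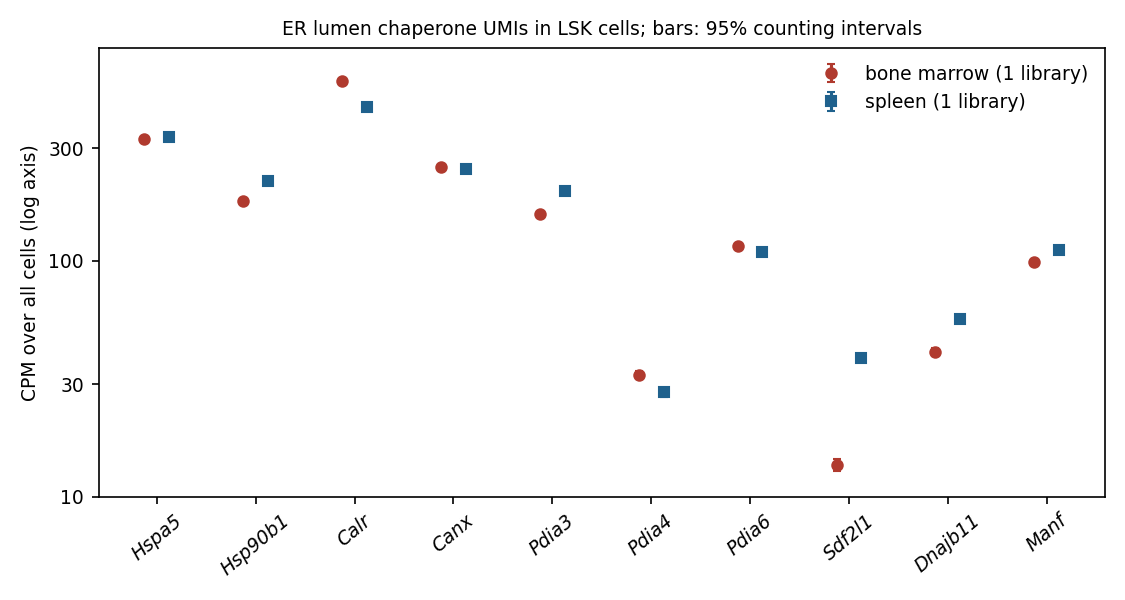
CPM of each member over all cells (log axis) in bone marrow library (circles) and the spleen library (squares), 1 library each, with 95% counting intervals that are mostly smaller than the symbols. Sdf2l1 shows the widest gap, 13.6 against 38.5 CPM, and Calr is the member furthest below the bone marrow value in spleen.

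Levels were next read within the 8 clusters of the authors' deposited cell table, whose abbreviations it does not define. Of these, 7 held at least 100 cells in both libraries. MCP held 36 bone marrow cells, so it was not compared between the libraries and is left out of the orders within bone marrow, which cover clusters of at least 100 cells. Erythroid markers summed highest in MEP (2698 CPM in bone marrow, 3697 in spleen), cycling markers in DCP (4924 and 4342), neutrophil granule markers in HSC-2 (6149 and 1242) and antigen-presenting markers in MP in both libraries (17044 and 37358). Clusters of 1 name did not hold the same cells in both tissues. Cells labelled as another type were 92.7% of spleen MP, 83.8% of spleen DCP, 82.5% of spleen LP, 42.1% of spleen HSC-3, 29.2% of spleen HSC-1, 12.3% of spleen HSC-2 and 1.12% of spleen MEP.

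Within a library the members did not share 1 order of clusters. Among clusters of at least 100 cells, Hspa5 was highest in MEP in both libraries, at 416 CPM in bone marrow and 391 in spleen, and lowest in HSC-3, at 252 and 233. The 36 bone marrow MCP cells stood at 451 CPM (365 to 551), an interval that holds the MEP value. Its bone marrow order was MEP, MP, HSC-2, HSC-1, LP, DCP and HSC-3, in which the intervals of MEP and MP, of MP and HSC-2, of HSC-1 and LP and of LP and DCP overlapped. In spleen MEP, MCP and MP led, with overlapping intervals between neighbours, and HSC-2, HSC-1, DCP, LP and HSC-3 followed, each overlapping the next. The range of BiP transcripts across clusters was narrow, 1.65-fold in bone marrow and 1.68-fold in spleen.

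Hsp90b1 was highest in DCP, the cluster with the most cycling markers, at 300 CPM in bone marrow and 390 in spleen. Its lowest values were 140 CPM in bone marrow HSC-1 and 153 CPM in spleen MCP. Calr was highest in HSC-2, at 851 and 625 CPM. Its lowest values were 383 CPM in bone marrow MP and 138 CPM in spleen MCP, a 4.54-fold range in spleen, in which of all neighbours the intervals of MEP and LP alone overlapped. Canx was highest in MEP, at 378 and 369 CPM, and lowest in MP, at 201 and 131 CPM. Pdia3 showed the opposite, with its highest level in MP at 216 and 287 CPM. In spleen MP, where most cells were labelled as another type, calnexin and its partner isomerase were therefore at opposite ends. In bone marrow MP, with 118 cells, neither end was set apart. There the Canx interval overlapped that of HSC-1, and the Pdia3 interval that of HSC-2.

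Pdia6 was highest in HSC-2 in bone marrow (169 CPM) and in MEP in spleen (134 CPM), where the intervals of MEP and HSC-2 overlapped. Manf followed the same order at its top, with 139 CPM in bone marrow HSC-2 and 139 CPM in spleen MEP. Pdia4 ran from 19.1 CPM in spleen MP to 41.2 CPM in bone marrow DCP. All neighbours in its bone marrow order overlapped, and in spleen all but MEP and MP. Dnajb11 ran from 33.7 CPM in bone marrow HSC-1 to 72.6 CPM in spleen MCP.

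Sdf2l1 ranged most, 20.0-fold over all sums of library and cluster with at least 100 cells. In bone marrow it stood at 2.60 CPM (2.02 to 3.29) in HSC-1 from 69 UMIs, 3.93 in DCP, 5.77 in LP, 9.77 in HSC-3, 24.3 in MP, 27.9 in MEP and 30.9 CPM (28.5 to 33.5) in HSC-2. In spleen it stood at 10.2 CPM in MCP, 14.1 in HSC-1, 14.2 in LP, 25.2 in HSC-2, 29.1 in HSC-3, 45.7 in DCP, 50.0 in MP and 51.9 CPM (49.5 to 54.5) in MEP. The intervals of bone marrow HSC-2, MEP and MP overlapped between neighbours, as did those of spleen MEP, MP and DCP. A UMI was found in 0.663% of thinned bone marrow HSC-1 cells (0.441 to 0.956%) and in 19.6% of thinned spleen MEP cells (17.1 to 22.4%), beside 1.37% and 71.3% unthinned.

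**Figure D2:**
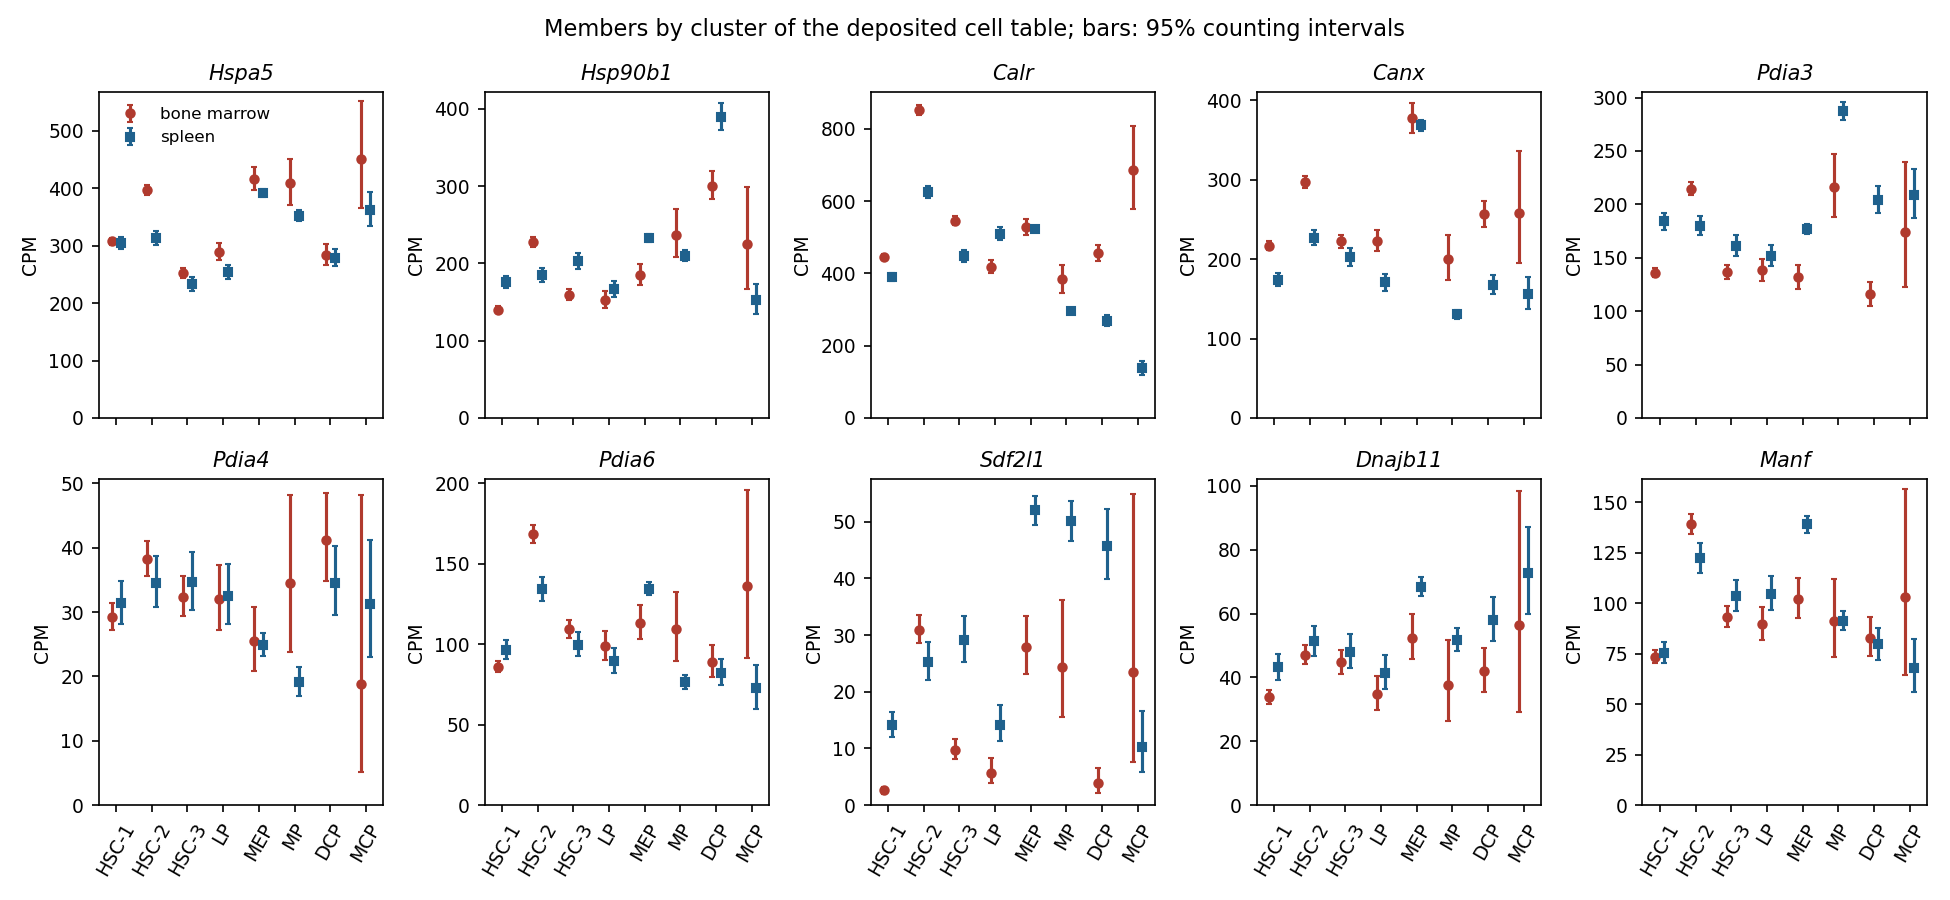
CPM of each member (linear axes from 0, a scale of its own for each gene) in the 8 deposited clusters, bone marrow as circles and spleen as squares, with 95% counting intervals; bone marrow MCP has 36 cells and wide intervals. Sdf2l1 is low in bone marrow HSC-1 and high in spleen MEP, Calr peaks in HSC-2 in both libraries, and Canx peaks in MEP.

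Between the libraries, Sdf2l1 was higher in spleen in each compared cluster but HSC-2, and Pdia3 gave the remaining 1 of 7 higher values. Of 70 pairs of member and cluster, 7 were at least 1.5-fold higher in spleen and 4 at least 1.5-fold lower. The share of genes past the limit is given beside each count, over genes that averaged 10 CPM or more in that cluster. Sdf2l1 averaged less than that in HSC-1 and LP, so its calls there are not among the genes of the shares, and 0 of the 9 members that are among them were past the limit. In HSC-1, 1 member was higher and 0 lower (4.96% and 5.48% of genes). In HSC-2 there were 0 and 0 (1.67% and 2.77% of genes), in HSC-3 1 and 0 (5.77% and 8.77%), in LP 1 and 0 (8.9% and 10.7%) and in MEP 1 and 0 (7.46% and 13.5%). In MP there were 1 and 2 (8.03% and 29.7%) and in DCP 2 and 2 (13.7% and 32.5%).

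The Sdf2l1 ratio was 5.42 (4.05 to 7.31) in HSC-1, 2.98 (2.37 to 3.75) in HSC-3, 2.47 (1.60 to 3.90) in LP, 1.86 (1.54 to 2.27) in MEP, 2.06 (1.37 to 3.23) in MP and 11.7 (6.80 to 21.7) in DCP. The DCP value rests on 14 bone marrow UMIs. In HSC-2 it was 0.816 (0.697 to 0.952). Without the cells labelled as another type it was 1.99 (1.32 to 2.97) in HSC-1, 0.833 (0.706 to 0.979) in HSC-2, 2.41 (1.83 to 3.17) in HSC-3, 2.16 (1.05 to 4.22) in LP and 1.87 (1.55 to 2.27) in MEP. The HSC-1 ratio was thus much smaller without those cells, while in MEP it was as large. In MP and DCP too few cells remained for a value. Among these 5 clusters Sdf2l1 was the member past 1.5-fold higher in HSC-1 (1.75% of genes), HSC-3 (4.35%), LP (7.03%) and MEP (7.65%), with 0 members in HSC-2 (1.47%). In HSC-1 and LP it again averaged less than 10 CPM and is not among the genes of those shares.

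The other pairs past 1.5-fold lay in MP and DCP, the clusters whose spleen cells were mostly labelled as another type. Pdia3 was higher in DCP (ratio 1.76, 1.57 to 1.98). Calr was lower in DCP (0.589, 0.547 to 0.634), Canx lower in MP (0.651, 0.562 to 0.757) and DCP (0.654, 0.594 to 0.720), and Pdia4 lower in MP (0.555, 0.388 to 0.817) on 34 bone marrow UMIs.

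Smaller differences ran in the same direction across clusters for some members. The counting interval of the Canx ratio lay below 1 in 6 of 7 clusters and that of Hspa5 in 5 of 7, and neither lay above 1 in any. Without the cells of another type, the Canx interval lay below 1 in 2 of 5 clusters, HSC-1 and HSC-2, and its HSC-3 ratio was 1.04 (0.964 to 1.12), while the Hspa5 interval lay below 1 in 4 of 5. The Pdia3 interval lay above 1 in 5 of 7 and below 1 in HSC-2, and above 1 in 3 of 5 without those cells. Dnajb11 lay above 1 in 3 and included 1 in 4, with ratios from 1.07 to 1.38. Hspa5, with a ratio of 1.03 over all cells, had ratios from 0.791 to 0.989 within the clusters. MEP, where Hspa5 was highest among clusters of at least 100 cells, held 36.8% of all UMIs in spleen and 5.69% in bone marrow.

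**Figure D3:**
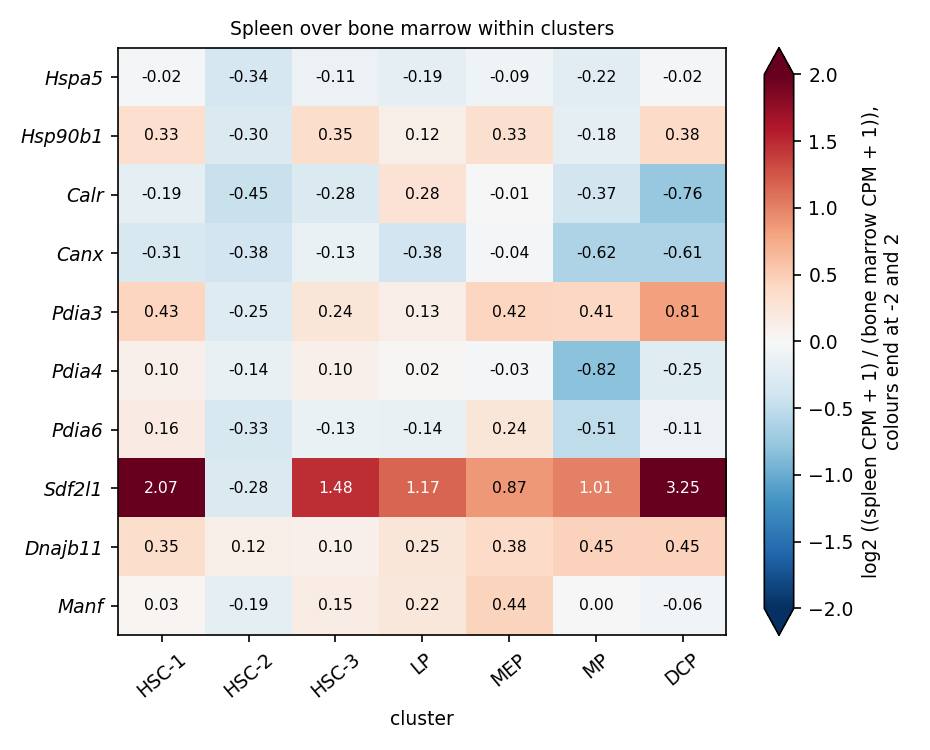
Log2 ratio of spleen over bone marrow CPM, with 1 CPM added to each, for each member (rows) in the 7 compared clusters (columns); red is higher in spleen and blue lower, and colours end at 2 in each direction. The Sdf2l1 row is positive except in HSC-2, and the HSC-2 column is negative except for Dnajb11 at 0.12.

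HSC-2 stood apart from the other clusters in that 9 of 10 members had a ratio under 1, with a median log2 ratio of -0.29 beside -0.01 for all genes. Of its bone marrow cells, 187 of 2148 carried the atlas label of a monocyte progenitor, against 10 of 737 in spleen. In bone marrow these 187 cells had the members summed at 4299 CPM, against 2122 CPM in the other 1961 cells, 2.03-fold higher (1.98 to 2.07). Sdf2l1 was 4.79-fold higher in them (98.6 and 20.6 CPM), Pdia6 2.61-fold, Manf 2.53-fold, Calr 2.16-fold (1596 and 738 CPM) and Canx 1.46-fold. Neutrophil granule markers stood at 26643 CPM in these cells and 3021 CPM in the others.

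Without the cells of that label in both libraries, a comparison added after the data were seen, the summed ratio in HSC-2 was 0.873 (0.857 to 0.889) in place of 0.787 (0.774 to 0.801). The Sdf2l1 ratio was then 1.13 (0.943 to 1.34) and the Manf ratio 1.04 (0.965 to 1.12), both with intervals that include 1. Hspa5 (0.834), Calr (0.822) and Canx (0.803) stayed lower in spleen, with intervals under 1, as did Hsp90b1 (0.910, 0.857 to 0.967). Dnajb11 was higher (1.21, 1.07 to 1.36), where its interval had included 1 with all cells. Granule markers still differed between the remaining cells, at 3021 and 862 CPM, and their part in these ratios was not tested.

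Grouped by atlas label instead of cluster, the summed members were highest in bone marrow monocyte progenitors and lowest in spleen mast cells. By value alone, Canx was highest in bone marrow erythroid cells (423 CPM, 401 to 447) and Dnajb11 in spleen mast cells (77.4 CPM, 62.5 to 94.7). Both intervals overlapped those of bone marrow monocyte progenitors, at 405 CPM (382 to 430) for Canx and 76.3 CPM (66.2 to 87.5) for Dnajb11. Each class was set against the multipotent progenitors with high Ctla2a of the same library, where the members summed to 1677 CPM in bone marrow and 1566 in spleen. The 189 bone marrow monocyte progenitors had 4270 CPM, 2.55-fold as much (2.50 to 2.60), with Sdf2l1 11.3-fold, Calr 2.91-fold, Pdia3 2.63-fold and Hspa5 1.82-fold higher. These labels come from matching each cell to an atlas, so they rest on expression too, and cells of 1 library are not replicates.

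Erythroid cells had a higher sum of the members in both libraries, 1.24-fold (1.21 to 1.27) in bone marrow and 1.37-fold (1.35 to 1.40) in spleen. Canx was 1.82-fold and 1.98-fold higher in them and Sdf2l1 3.71-fold and 5.26-fold, while Calr was level with the multipotent class in both (1.00 and 1.03). Pdia4 stood at 0.812-fold (0.638 to 1.02) in bone marrow and 0.709-fold (0.624 to 0.807) in spleen, and Pdia3 at 0.943-fold (0.853 to 1.04) and 1.18-fold (1.11 to 1.24). In the 1910 spleen cells labelled dendritic, the sum was level (1.01, 0.989 to 1.03), with Pdia3 1.77-fold and Sdf2l1 4.83-fold higher and Calr at 0.540-fold. Calreticulin and its partner Pdia3 also load peptides onto MHC class I molecules.

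In the 632 spleen cells labelled mast cell, Calr stood at 123 CPM, 0.238-fold (0.201 to 0.280) of the multipotent level, and the sum at 0.745-fold, while Dnajb11 was 1.95-fold higher. These cells had a median of 1477 UMIs each, far below the other classes. In the 113 cells labelled basophil Hspa5 stood at 563 CPM, 2.08-fold higher (1.85 to 2.32), and Calr at 0.377-fold. BiP and calreticulin thus stood in opposite directions in that class. The 747 cells labelled T cell had 0.970-fold of the summed level, with Calr level (1.00) and Hspa5 at 0.865-fold.

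**Figure D4:**
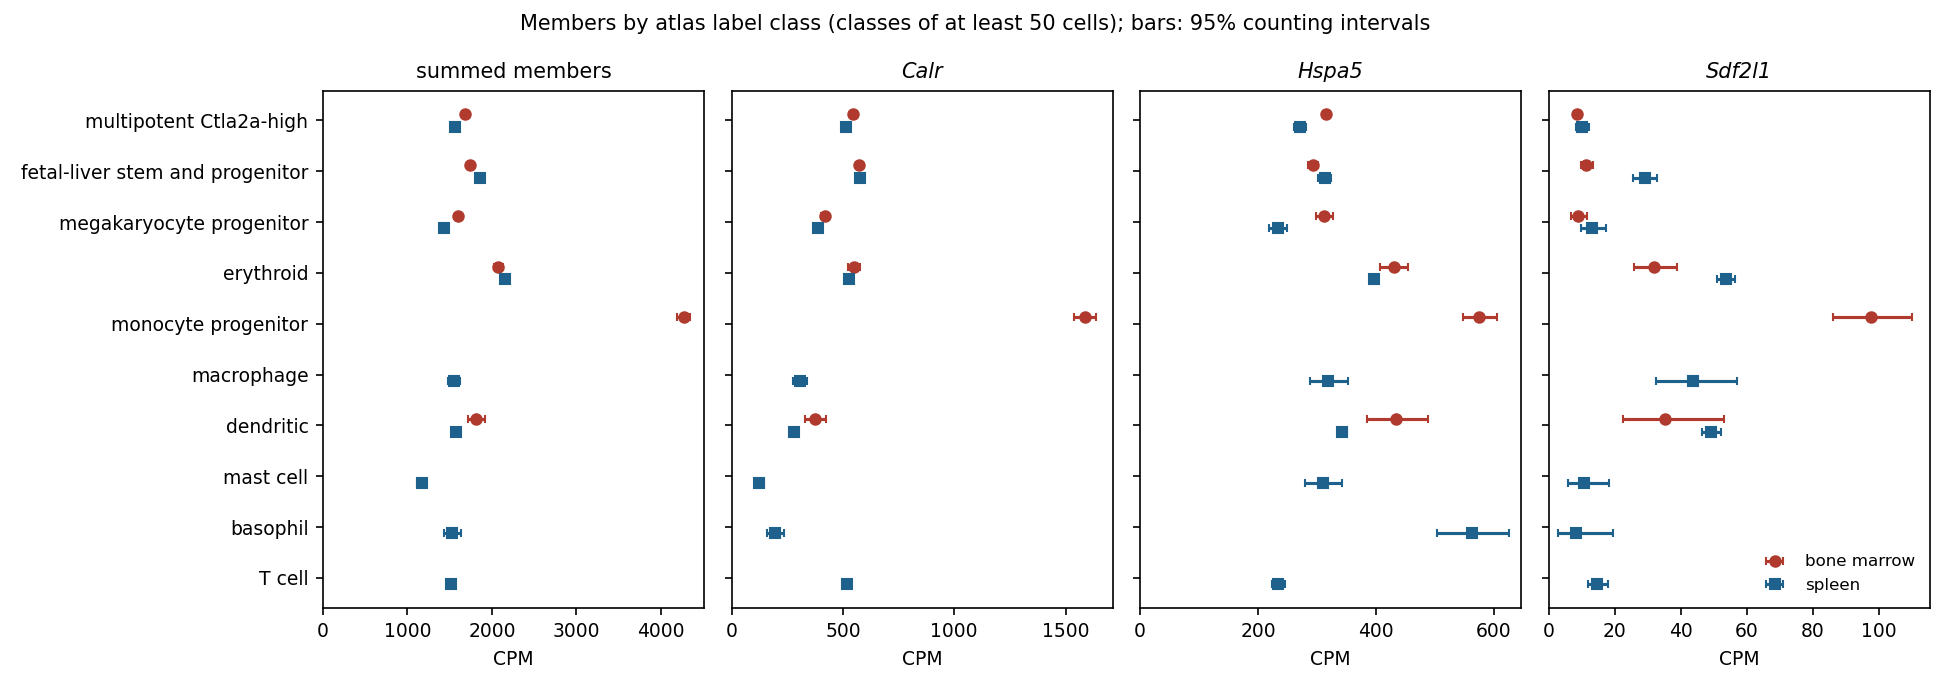
CPM of the summed members, Calr, Hspa5 and Sdf2l1 (linear axes from 0) in atlas label classes of at least 50 cells in a library, bone marrow as circles and spleen as squares, with 95% counting intervals. Bone marrow monocyte progenitors are highest in each panel, though for Hspa5 their interval overlaps that of spleen basophils. Spleen mast cells are lowest for the sum (1167 CPM) and for Calr (123 CPM).

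The members were then compared with each other over the 15 sums of library and cluster with at least 100 cells, as Pearson's r of log2 (CPM + 1). The sums share 2 libraries and their totals, so r is a description. Of 45 pairs, 9 had r above 0.5 and 11 below 0, with a median of 0.22. Pdia6 with Manf (0.85), Calr with Pdia6 (0.81) and Calr with Manf (0.74) were most alike. Canx with Pdia3 was lowest (-0.49). BiP and GRP94, often read together as a sign of ER load, had 0.07. Of the 5 members with an ERSE, Calr, Pdia6 and Canx were alike (Calr with Canx 0.64, Canx with Pdia6 0.73). The other 2, Hspa5 and Hsp90b1, were less so. Pairs among the 5 that include either ran from -0.02 (Hspa5 with Calr) to 0.39 (Hspa5 with Canx).

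Among 3237 other genes averaging 50 CPM or more, those most like the summed members were Rpn1 (0.89) and Rpn2 (0.85), subunits of the oligosaccharyltransferase that adds sugars to chains entering the ER, with Ipo7 (0.87), Larp1 (0.85) and Ndufc1 (0.84). Most like Hspa5 were Dstn (0.72), Hdlbp (0.71), Pin4 (0.69), Eif5b (0.68) and mt-Nd3 (0.68). Most like Sdf2l1, a list added after the data were seen, were Bri3bp (0.92) and Ndufaf8 (0.90).

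Among cells of 1 cluster, Hspa5 had the highest median ratio of variance to mean. The variance of its thinned UMIs per cell divided by the mean, which is near 1 for counting noise alone, had a median of 1.56 over the 15 sums (1.24 to 2.64). Calr ran from 1.13 to 2.26, the highest in bone marrow HSC-2, where the monocyte progenitor label lies. Dnajb11 had a median of 1.00 and Pdia4 of 1.02. The ratio stays near 1 where a gene has few UMIs per cell, so it does not rank members by evenness. In bone marrow HSC-1, Hspa5 averaged 1.13 thinned UMIs per cell, Dnajb11 0.126 and Pdia4 0.106. From cell to cell, the median r of thinned UMIs over the 45 pairs was 0.01 in bone marrow HSC-1. It was 0.11 in spleen MP, where Hspa5 and Calr reached 0.33. Most members averaged under 1 UMI per thinned cell, as low as 0.0066 for Sdf2l1 in bone marrow HSC-1. Counting noise lowers r at such means, so these values cannot show how far the members vary together.

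The sources used here do not give the gene list behind the deposited ER stress score of each cell. That score was higher in spleen, while the summed CPM of the members was not. Under TMM scaling, 8 members were higher in spleen and 2 lower, against 6 and 4 by CPM. The mean score was 0.0743 ± 0.0324 (SD over 10088 cells) in bone marrow and 0.114 ± 0.0457 (SD over 6546 cells) in spleen. The spleen mean was the higher in each of the 7 compared clusters. The gap was widest in MEP (0.0896 and 0.144). In HSC-2, where it was narrowest, the score was 0.0868 and 0.105, although the members summed to 2411 CPM in bone marrow and 1898 in spleen. Over the 15 sums r between mean score and log2 summed members was 0.22. Whether the score follows sequencing depth, which also differed, was not tested.

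**Figure D5:**
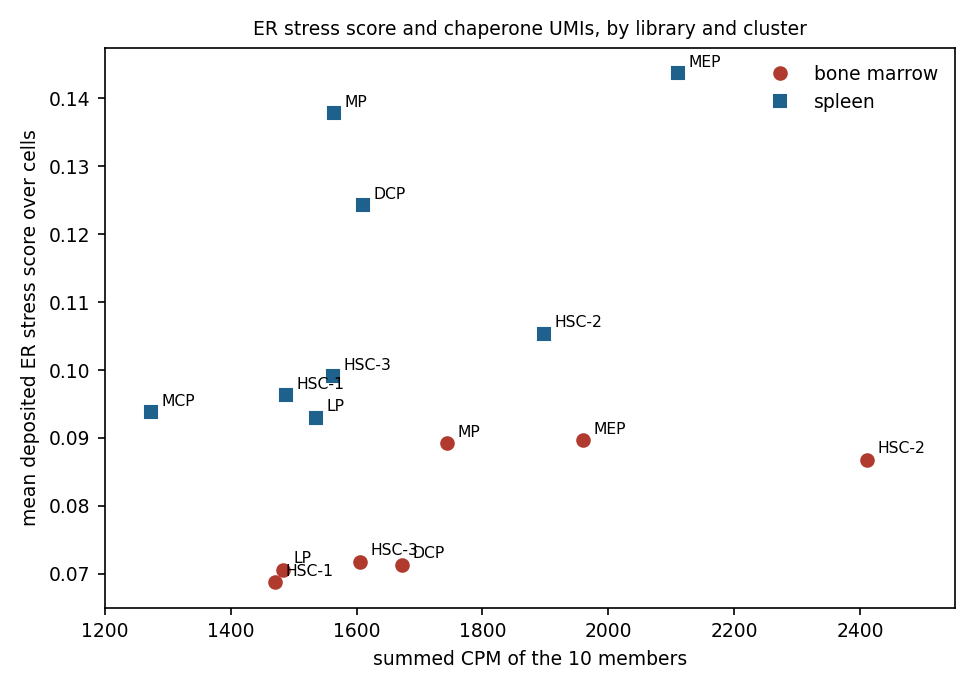
Mean deposited ER stress score over cells (vertical axis, unit of the deposited table) against summed CPM of the 10 members (horizontal axis, which does not start at 0) for the 15 sums of library and cluster with at least 100 cells, bone marrow as circles and spleen as squares. Every spleen point lies above every bone marrow point in score, while the 2 libraries overlap in chaperone CPM.

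Other genes of ER protein handling were read from lists to set the members in context, with the backgrounds of 10.8% higher and 18.3% lower as above. Among other folding enzymes and cochaperones, 4 of 33 measured were at least 1.5-fold higher in spleen and 5 lower, with a median log2 ratio of -0.02. The isomerase Pdia5 stood at 6.54 CPM in bone marrow and 49.7 CPM in spleen (7.60-fold, 6.91 to 8.36), but its log2 ratio of 2.75 was 0.55 without the cells of another type. Ero1lb, an oxidase that recharges the isomerases, was 2.02-fold higher, and its log2 ratio of 0.95 was -0.55 without those cells. Dnajb9, a BiP cochaperone induced by IRE1, was at 0.516-fold and the sulfhydryl oxidase Qsox1 at 0.486-fold.

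Of 18 translocon and signal peptidase genes, 0 were higher and 1 lower (median -0.04). Ssr2 (1.46-fold) and Spcs1 (1.32-fold) were at the top, and Sec62 (0.667-fold) and Tram1 (0.644-fold) at the bottom. Of 10 oligosaccharyltransferase genes, 0 were past the limit in either direction and the median was 0.27, with Tusc3 (1.35-fold) and Ostc (1.31-fold) highest and Stt3b (1.07-fold) and Stt3a (0.924-fold) lowest. Both gene groups act on chains as they enter the ER.

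Of 10 ER sensors and their factors, 1 was higher and 4 lower, with the lowest median of the 6 lists at -0.40. Ern1, which encodes IRE1, stood at 37.0 CPM in bone marrow and 13.6 CPM in spleen, 0.368-fold (0.343 to 0.394). Creb3l2 was at 0.504-fold, Nfyc, a subunit of the ERSE-binding factor NF-Y, at 1.08-fold, and Atf6b at 1.72-fold. Transcript levels do not show sensor activity.

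Of 15 degradation and export genes, 0 were higher and 1 lower (median 0.12). Derl2 (1.37-fold) and Derl1 (1.36-fold), which pass misfolded chains out of the ER, were at the top, and Sel1l (0.770-fold) and Edem2 (0.646-fold) at the bottom. Of 6 peptide loading partners of calreticulin and Pdia3, 0 were past the limit (median 0.10). Tapbp (1.35-fold) and Tap1 (1.23-fold) led, with Tap2 at 1.05-fold and Erap1 at 0.744-fold. Without the cells of another type the median of this list was -0.28.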

How the data were processed

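UMI counts per gene and cell were used as the authors deposited them, without normalization. Per the series design text, reads were aligned to mm10 (GRCm38) and counted with Cell Ranger 3.1.0. Per the submitters' processing notes, Seurat 3.1.5 was used and the build was mm9, which conflicts. Symbols and coordinates came from GENCODE M21 by Ensembl identifier (30934 of 31053 identifiers had a symbol in the supplied table). How cells were filtered or doublets handled is not given in the sources used here. All deposited cells were kept and no doublets were called. Clusters, atlas labels and the ER stress score came from the deposited cell table; how the authors made that score is not stated. The integrated matrix was not used.

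Counts were summed per library, cluster or label class and scaled to CPM. A 3′ assay gives 1 tag per transcript, so CPM was not divided by gene length, and levels were not ranked between genes. Sums have exact Poisson intervals, ratios an exact interval from both Poisson counts, and cell shares exact Clopper-Pearson intervals, at 95%. UMIs are not independent of their cell and library, so intervals cover counting error only. Log2 ratios used a pseudocount of 1 CPM, and genes were measured at a mean of at least 10 CPM. Thinning drew 3700 UMIs per cell and left out 1007 bone marrow and 672 spleen cells. TMM factors came from edgeR 4.0.16 in R 4.3.3; the rest ran in Python 3.11.15 with numpy 2.4.6, scipy 1.17.1 and pandas 2.3.3. The ratio script was tested on simulated data.

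The members and lists were chosen with earlier results of these data known. Genes named beside the members are the 2 highest and 2 lowest measured of each list and the 5 most like the summed members or Hspa5 (no names starting Gm or ending Rik). The cells without another type lack those whose atlas label names a dendritic, T, natural killer, B, plasma, mast or basophil cell. The 124 cells labelled macrophage with high Plbd1 were kept. A planned reading of the last residues of each protein was not made.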

Additional observations from a re-analysis of the deposited data

Results flagged for a closer look

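For 6 members the counting interval of the ratio of spleen over bone marrow lay above 1 in a cluster and below 1 in another. The difference between clusters was not tested, since each rests on 1 library per tissue. Sdf2l1, the BiP cochaperone, was 11.7-fold higher in the spleen in DCP and stood at 0.816-fold in HSC-2. Hsp90b1 stood at 1.30-fold in DCP and 0.813-fold in HSC-2, and Pdia3 at 1.76-fold in DCP and 0.837-fold in HSC-2. Calr stood at 1.22-fold in LP and 0.589-fold in DCP. Pdia6 stood at 1.18-fold in MEP and 0.699-fold in MP. Manf stood at 1.36-fold in MEP and 0.878-fold in HSC-2. Cells labelled as another type made up 83.8% of spleen DCP, 92.7% of spleen MP and 82.5% of spleen LP, and cells labelled monocyte progenitor were 187 of the 2148 bone marrow cells of HSC-2.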

How the results depend on the processing

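The members' median log2 ratio over all cells, 0.10, was 0.31 under TMM, 0.32 under median-of-ratios scaling, 0.031 with every cell weighed alike, 0.039 after thinning, -0.011 with the clusters weighted alike and 0.19 without cells of another type, while the median of all genes ran from -0.13 to 0.11. Members at least 1.5-fold higher numbered 2 under TMM and under median-of-ratios scaling, and 1 under the other settings. Members at least 1.5-fold lower numbered 0 under every setting tried. Over all genes, 937 were higher and 1578 lower, against 1467 and 2836 with a filter of 1 CPM and 1646 and 3005 with a filter of 1 UMI, because more genes were then counted. Of the pairs of member and cluster, 7 were higher and 4 lower, against 4 and 0 without cells of another type (which leaves 5 clusters) and 4 and 0 without MP and DCP, a setting chosen after seeing the data. A log2 ratio of a single member moved by more than its counting interval in 51 of 80 values over all cells and in 43 of 200 within clusters. The cause of these shifts was not tested. No paired analysis was possible because each tissue has 1 library, which also leaves no library to leave out. Without cells of another type, MP and DCP gave no value, with fewer than 100 cells in a library. The planned reading of protein ends was not run. Depth limits Sdf2l1 most, with 69 UMIs in bone marrow HSC-1 and 14 in bone marrow DCP.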
